A study of Homo sapiens and Mus musculus with 21 samples.

Results

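The nuclear genes for the subunits of respiratory complexes I, II and III were followed through RNA sequencing of cells from mesothelioma, which arises in the lining of the chest cavity. The members were defined by gene name, with earlier results of these data known. They were every protein-coding gene named NDUFA, NDUFAB, NDUFB, NDUFC, NDUFS or NDUFV with a number, SDHA to SDHD, and every name that starts with UQCR. This gave 51 of the 60674 genes in the human tables and 49 of the 41214 genes in the mouse table, where no gene named Ndufb1 or Uqcrhl was found. All of them passed the filter on low counts, so all 51 and all 49 were tested. By role, the human members were 7 core subunits of complex I, 9 accessory subunits of its matrix arm, 21 accessory subunits of its membrane arm, the 4 subunits of complex II, 9 genes of complex III, and NDUFA4, which carries a complex I name but is a subunit of complex IV. CYC1, the cytochrome subunit of complex III, and the subunits encoded in mitochondrial DNA do not carry these names and were read as a separate list.

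Complex I oxidises NADH and passes the electrons along a chain of iron-sulfur clusters to ubiquinone while it pumps protons. Complex II, succinate dehydrogenase, is at once an enzyme of the tricarboxylic acid cycle and a second entry point for electrons, and complex III carries electrons from ubiquinol to cytochrome c. Complexes I and III join subunits from both genomes, whereas complex II is wholly nuclear-encoded, and loss of SDH genes is a known cause of tumours through the build-up of succinate.

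The knockdown libraries came from the human lines H2810 and MSTO-211H, in which BAP1 was knocked down by an shRNA (shBAP1) and the control was a random hairpin. The drug libraries came from H2810 and H2731, whose BAP1 is given as wildtype and as mutated respectively, with DMSO, the vehicle, or with GSK126, an inhibitor of the histone methyltransferase EZH2. All of these groups held 2 libraries. The mouse cells were 3 libraries labelled BNC, with the genotype Bap1-/-;Nf2-/-;Cdkn2ab-/-, and 2 labelled NC, with Nf2-/-;Cdkn2ab-/-, so the control cells also lacked Nf2 and Cdkn2ab. The BAP1 protein removes ubiquitin from histone H2A, and mesothelioma often loses it. The labels give no drug dose, no treatment time, no number of hairpins and no statement that replicates were separate cultures, so every p-value measures the spread between these libraries, which may be technical.

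Library totals ran from 13693927 to 23217215 counts, and the members together took 0.274 to 0.391% of them. BAP1 was at 115 and 117 CPM (counts scaled to library size) in H2810 with the random hairpin and at 13.4 and 20.3 CPM with shBAP1, and it was at 100.1 and 102.7 against 15.4 and 17.7 CPM in MSTO-211H. Mouse Bap1 was at 30.5, 33.3 and 44.1 CPM in BNC and at 60.2 and 62.0 CPM in NC, a count over the whole gene that does not check a deletion within it. Among mesothelial markers, the keratin KRT8 was at 1137 CPM or more in every human library, while UPK1B and LRRN4 were at or near 0 in all of them. In the mouse, Calb2 was at 0 in all 5 libraries, and the summed level of the 12 mesothelial markers ran from 134 to 2688 CPM. The 7 leukocyte markers together reached at most 7.4 CPM in any library of the series, with TYROBP at 0 throughout.

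A few members could not be counted like the rest. NDUFV2, a core subunit of complex I, averaged 0.94 CPM over the 8 knockdown libraries, and NDUFA7 averaged 0.40 CPM. In the GENCODE annotation of GRCh38, exons of another gene on the same strand cover 89.97% of the chosen transcript of NDUFV2 and 77.9% of that of NDUFA7. The same holds for 83.9% of NDUFA13, 72.0% of NDUFB8, 69.4% of SDHA and 68.2% of NDUFA11. NDUFS7 is covered to 51.3%, mostly by a gene on the opposite strand. The handling of such reads in the counting was not stated, and mouse Ndufv2 stood at 72.6 to 98.4 CPM. UQCRHL is a near copy of UQCRH: their transcripts align over 276 bases with 272 identical (98.6%), so reads may be split between them. Values for these genes are given with that limit.

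Knockdown of BAP1 was accompanied by small rises in many of these genes in both lines. A gene was called where edgeR's quasi-likelihood test gave an adjusted p (Benjamini-Hochberg over all genes tested) under 0.05. In H2810, 27 of 51 members were called higher and 1 lower, where 22.5% of all 15872 genes tested were called higher and 23.3% lower (45.8% either way). In MSTO-211H, 30 were called higher and 1 lower, against 21.7% and 24.5% of all genes (46.2% either way). The median log2 fold change of the members was 0.21 in H2810 and 0.23 in MSTO-211H, where the median of all genes tested was -0.03 and -0.02. Both shBAP1 libraries lay above both controls for 40 members in H2810 and below for 1, as for 33.2% and 36.3% of all genes, and in MSTO-211H for 41 and 6, as for 36.1% and 39.5%. No member reached a 2-fold change in either line. In such bulk samples, a change in the share of cells that hold a transcript and a change in the amount per cell cannot be told apart.

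Of the 27 members called higher in H2810, 24 (88.9%) were also called higher in MSTO-211H, which is 80% of the 30 called there. Over all genes tested, 1743 were called higher in both, 48.7% of those higher in H2810 and 50.7% of those higher in MSTO-211H. NDUFA10, NDUFV1 and SDHD were called higher in H2810 alone, and NDUFB2, NDUFB3, NDUFB4, NDUFB10, NDUFS7 and UQCRHL in MSTO-211H alone. In MSTO-211H the call of NDUFS7 held in 9 of 11 alternative settings, that of NDUFB4 in 6 of 11 and that of UQCRHL in 3 of 10. The difference of the responses between the lines was not called for NDUFV1, SDHD, NDUFB4, NDUFS7 or UQCRHL. No member was called in opposite directions. Of all genes tested, 2.51% were called higher in H2810 and lower in MSTO-211H, and 1.76% the reverse. Neither line had a call for 16 members.

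**Figure D1:**
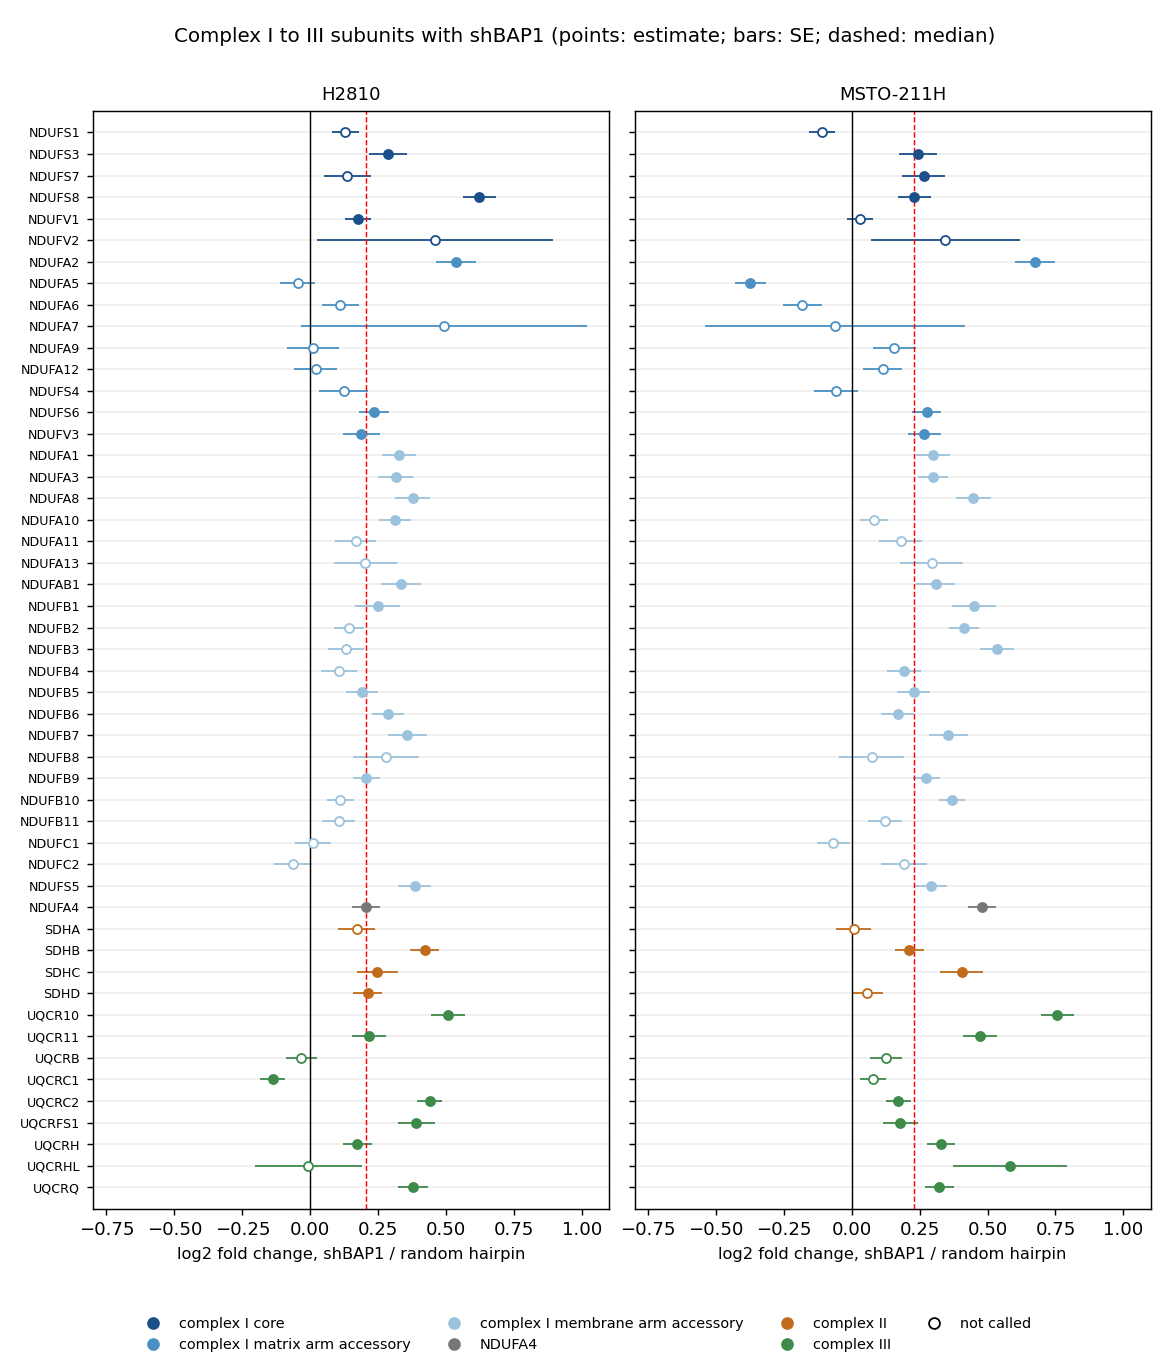
Log2 fold change of the human members (1 not shown) with shBAP1 against the random hairpin (x axis) in H2810 and MSTO-211H, by role. Points are edgeR estimates, bars are SE, filled points were called, and the dashed line is the median of the members. Most points lie to the right of 0 in both lines, with medians of 0.21 and 0.23, and UQCRC1 in H2810 and NDUFA5 in MSTO-211H are the filled points to the left of it.

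Among the 7 core subunits of complex I, 3 were called higher in each line and none lower. NDUFS8 (ENSG00000110717, chromosome 11, 68030617 to 68036644), which holds a pair of iron-sulfur clusters near the end of the chain, stood at 68.4 and 69.5 CPM with the random hairpin in H2810 and at 103 and 109 CPM with shBAP1. The groups did not overlap, and this was the largest rise of any member there (log2 fold change 0.62 ± 0.06, SE, adjusted p = 9.39e-06). In MSTO-211H it stood at 82.7 and 77.4 CPM against 90.1 and 97.7 CPM, a rise of 0.23 ± 0.06 (adjusted p = 0.00772). NDUFS3, a core subunit without a redox centre, went from 43.2 and 49.6 to 56.0 and 57.1 CPM in H2810 and from 47.6 and 50.9 to 60.4 and 56.3 CPM in MSTO-211H, and rose by 0.29 ± 0.07 and 0.24 ± 0.07. The libraries with shBAP1 were above those without in both lines.

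The other core subunits were less even. NDUFV1, which binds NADH and the flavin, was at 131 and 136 CPM against 149 and 152 CPM in H2810, a rise of 0.18 ± 0.05 (adjusted p = 0.00986), and at 169 and 173 against 177 and 173 CPM in MSTO-211H (0.03 ± 0.05). NDUFS7, which carries the last iron-sulfur cluster before ubiquinone, was called higher in MSTO-211H alone, from 47.3 and 40.2 to 50.6 and 54.4 CPM (0.26 ± 0.08, adjusted p = 0.0172). NDUFS1, the largest subunit, was at 92.7 and 87.9 against 99.2 and 98.4 CPM in H2810 (0.13 ± 0.05, adjusted p = 0.053) and at 219 and 217 against 206 and 198 CPM in MSTO-211H (-0.11 ± 0.05, adjusted p = 0.082). NDUFV2, at under 2 CPM, differed by 0.46 ± 0.43 and 0.34 ± 0.27. These differences of NDUFS1 and NDUFV2 did not pass the test.

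Of the 9 accessory subunits of the matrix arm, 3 were called higher in each line, and they were the same 3, NDUFA2, NDUFS6 and NDUFV3. NDUFA2 (ENSG00000131495), a small subunit with a thioredoxin-like fold, went from 23.9 and 24.5 to 37.3 and 32.9 CPM in H2810 and from 21.4 and 21.1 to 35.1 and 32.9 CPM in MSTO-211H. Every shBAP1 library was above every library with the random hairpin, and the rises of 0.54 ± 0.07 (adjusted p = 0.000118) and 0.68 ± 0.07 (adjusted p = 2.43e-05) were the second largest in each line. On its chosen transcript, 27.4% lies under exons of other genes, 19.1% under those of TMCO6 on the opposite strand. TMCO6 averaged 13.7 CPM over the knockdown libraries, where NDUFA2 averaged 28.6 CPM. NDUFS6, a zinc-binding subunit, rose by 0.24 ± 0.06 and 0.28 ± 0.05, and NDUFV3 by 0.19 ± 0.07 and 0.27 ± 0.06.

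NDUFA5 went the other way in MSTO-211H. It was at 72.5 and 70.1 CPM with the random hairpin and at 56.8 and 53.3 CPM with shBAP1, so the groups did not overlap, and it fell by 0.37 on the log2 scale (SE 0.06, adjusted p = 0.000284). It was the only member called lower in that line. In H2810, where it was at 26.8 and 29.2 against 26.7 and 27.5 CPM, the difference was -0.05 ± 0.07. NDUFA6, which binds the acyl carrier protein NDUFAB1 on the matrix arm, differed by 0.11 ± 0.07 and -0.18 ± 0.07, neither of which passed the test.

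The 21 accessory subunits of the membrane arm had 11 called higher in H2810 and 14 in MSTO-211H and none lower in either. NDUFA8, a subunit on the intermembrane face, went from 47.5 and 53.5 to 64.5 and 66.6 CPM in H2810 (0.38 ± 0.06, adjusted p = 0.000661) and from 54.4 and 58.2 to 78.1 and 75.6 CPM in MSTO-211H (0.45 ± 0.06, adjusted p = 0.000174). NDUFS5, which lies on the same face despite its name, rose by 0.39 ± 0.06 and 0.29 ± 0.06, and NDUFB7 by 0.36 ± 0.07 and 0.35 ± 0.07. NDUFAB1, the mitochondrial acyl carrier protein, rose by 0.33 ± 0.07 and 0.31 ± 0.07. In all of these the libraries with shBAP1 lay above those with the random hairpin.

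Other subunits of the distal membrane arm were called in MSTO-211H alone. NDUFB3 was at 25.98 and 24.92 CPM against 37.3 and 36.4 CPM there, a rise of 0.53 ± 0.06 (adjusted p = 4.18e-05), and at 22.2 and 24.2 against 25.3 and 25.5 CPM in H2810 (0.13 ± 0.07, adjusted p = 0.13). NDUFB10 rose by 0.37 ± 0.05 in MSTO-211H and NDUFB2 by 0.41 ± 0.06, where in H2810 the differences were 0.11 ± 0.05 and 0.14 ± 0.06. NDUFC1 and NDUFC2, the subunits of the NDUFC class, were called in neither line. NDUFA4, the complex IV subunit, went from 116 and 123 to 136 and 140 CPM in H2810 and from 125 and 125 to 179 and 169 CPM in MSTO-211H, with rises of 0.21 ± 0.05 and 0.48 ± 0.05.

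Of the 4 subunits of complex II, 3 were called higher in H2810 and 2 in MSTO-211H. SDHB (ENSG00000117118, chromosome 1, 17018722 to 17054032), the iron-sulfur subunit, stood at 75.7 and 79.6 CPM with the random hairpin and at 105 and 103 CPM with shBAP1 in H2810, a rise of 0.42 ± 0.05 (adjusted p = 9.06e-05). In MSTO-211H it went from 136 and 147 to 164 and 164 CPM, a rise of 0.21 ± 0.05 (adjusted p = 0.00671). SDHC, one of the membrane anchors, rose by 0.25 ± 0.08 in H2810 and 0.40 ± 0.08 in MSTO-211H. The other anchor, SDHD, was at 58.4 and 63.0 against 71.9 and 68.6 CPM in H2810 (0.21 ± 0.05, adjusted p = 0.00786) and at 44.8 and 44.8 against 46.5 and 46.8 CPM in MSTO-211H (0.06 ± 0.06). SDHA, the flavoprotein that oxidises succinate, was at 29.1 and 29.1 against 33.7 and 31.8 CPM in H2810 (0.17 ± 0.07, adjusted p = 0.056). In MSTO-211H it was at 38.0 and 34.0 against 36.1 and 36.3 CPM (0.01 ± 0.07), and without the second random-hairpin library the estimate was -0.07.

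Complex III held the largest rise of MSTO-211H. UQCR10 (ENSG00000184076, chromosome 22, 29767369 to 29770413), a small membrane subunit, went from 43.9 and 43.7 to 76.5 and 71.6 CPM there, and the rise was 0.76 ± 0.06 (1.69-fold, adjusted p = 2.57e-06). In H2810 it went from 39.0 and 43.5 to 59.0 and 58.2 CPM (0.51 ± 0.06, adjusted p = 6.16e-05). Of the other subunits without a redox centre, UQCR11 rose by 0.22 ± 0.06 and 0.47 ± 0.06, UQCRQ by 0.38 ± 0.05 and 0.32 ± 0.05, and the hinge protein gene UQCRH by 0.17 ± 0.05 and 0.33 ± 0.05, in H2810 and MSTO-211H. UQCRFS1, the Rieske iron-sulfur protein, was at 34.3 and 40.0 against 48.7 and 48.5 CPM in H2810 (0.39 ± 0.07) and at 63.2 and 62.2 against 70.8 and 71.1 CPM in MSTO-211H (0.18 ± 0.06).

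The core proteins of complex III parted from each other in H2810. UQCRC2 went from 137 and 138 to 190 and 183 CPM and rose by 0.44 ± 0.05 (adjusted p = 2.38e-05). UQCRC1 (ENSG00000010256) went from 257 and 268 to 240 and 237 CPM and fell by 0.14 on the log2 scale (SE 0.05, adjusted p = 0.032), the only member called lower in that line. Its call was lost under 7 of the 11 alternative settings. In MSTO-211H UQCRC2 was at 246 and 256 against 279 and 286 CPM (0.17 ± 0.05, adjusted p = 0.0106) and UQCRC1 at 216 and 224 against 235 and 230 CPM (0.08 ± 0.05, adjusted p = 0.20). UQCRB, which binds near the ubiquinone site, was called in neither line (-0.03 ± 0.06 and 0.12 ± 0.06).

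The bases before the start site were read for the members that matched the RefSeq promoter table of GRCh38.p14, 42 of 51 by symbol. They were searched on both strands for motifs known from genes of the respiratory chain: NRF1 (GCGCANGCG), ETS (CCGGAAGT), YY1 (AAGATGGCG) and ERR (TCAAGGTCA). The NRF1 letters stood in the 250 bases upstream of 13 members (31.0%), where they stood in 7.02% of all 27305 promoters of that length and in 12.9% of the 11070 of tested genes. With a C required after them, they stood in 10 members (23.8%), against 5.53% and 10.2%. The ETS letters stood in 6 members (14.3%, against 3.64% and 6.90%), and the YY1 and ERR letters in none. Of the 13 members with the NRF1 letters, 6 were called higher in H2810 and 7 in MSTO-211H, against 16 and 17 of the 29 without them. The following 250 bases, 5′ to 3′ on each gene's strand with matches in capitals, show complex III genes that moved differently, and NDUFA2. UQCR10 and NDUFA2, the leading rises of MSTO-211H, lie at chr22:29767119-29767368 (plus strand) and chr5:140647631-140647880 (minus strand) and hold none of the 4 motifs.
UQCR10: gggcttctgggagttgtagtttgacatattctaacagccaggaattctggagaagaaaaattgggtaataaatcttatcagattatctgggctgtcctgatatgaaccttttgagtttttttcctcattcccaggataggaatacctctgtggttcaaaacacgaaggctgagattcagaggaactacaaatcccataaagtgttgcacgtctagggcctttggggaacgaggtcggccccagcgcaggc
NDUFA2: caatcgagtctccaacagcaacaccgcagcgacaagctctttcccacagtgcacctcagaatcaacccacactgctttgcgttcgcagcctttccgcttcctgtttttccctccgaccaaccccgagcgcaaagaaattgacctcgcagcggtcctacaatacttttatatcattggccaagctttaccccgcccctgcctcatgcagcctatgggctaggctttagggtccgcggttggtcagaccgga
UQCR11, at chr19:1605463-1605712 (minus strand), holds the NRF1 letters at 2 places and the ETS letters once, and rose in both lines.
UQCR11: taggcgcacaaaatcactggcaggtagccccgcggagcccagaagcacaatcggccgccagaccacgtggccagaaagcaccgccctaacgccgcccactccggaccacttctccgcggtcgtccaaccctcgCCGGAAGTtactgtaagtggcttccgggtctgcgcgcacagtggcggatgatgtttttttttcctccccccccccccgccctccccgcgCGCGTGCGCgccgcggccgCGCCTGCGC
UQCRFS1, at chr19:29213152-29213401 (minus strand), and UQCRC1, at chr3:48609647-48609896 (minus strand), hold the NRF1 letters once and at 2 places, and UQCRFS1 rose while UQCRC1 fell in H2810.
UQCRFS1: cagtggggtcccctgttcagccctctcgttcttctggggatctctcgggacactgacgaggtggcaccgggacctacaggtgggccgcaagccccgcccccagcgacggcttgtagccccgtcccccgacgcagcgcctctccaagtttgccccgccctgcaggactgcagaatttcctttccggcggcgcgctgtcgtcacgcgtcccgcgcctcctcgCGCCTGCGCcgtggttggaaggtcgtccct
UQCRC1: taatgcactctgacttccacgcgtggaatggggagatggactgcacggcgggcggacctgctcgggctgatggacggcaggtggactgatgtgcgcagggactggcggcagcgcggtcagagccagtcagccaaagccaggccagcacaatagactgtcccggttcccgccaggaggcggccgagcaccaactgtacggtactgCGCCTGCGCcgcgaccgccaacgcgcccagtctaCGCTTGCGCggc

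**Figure D2:**
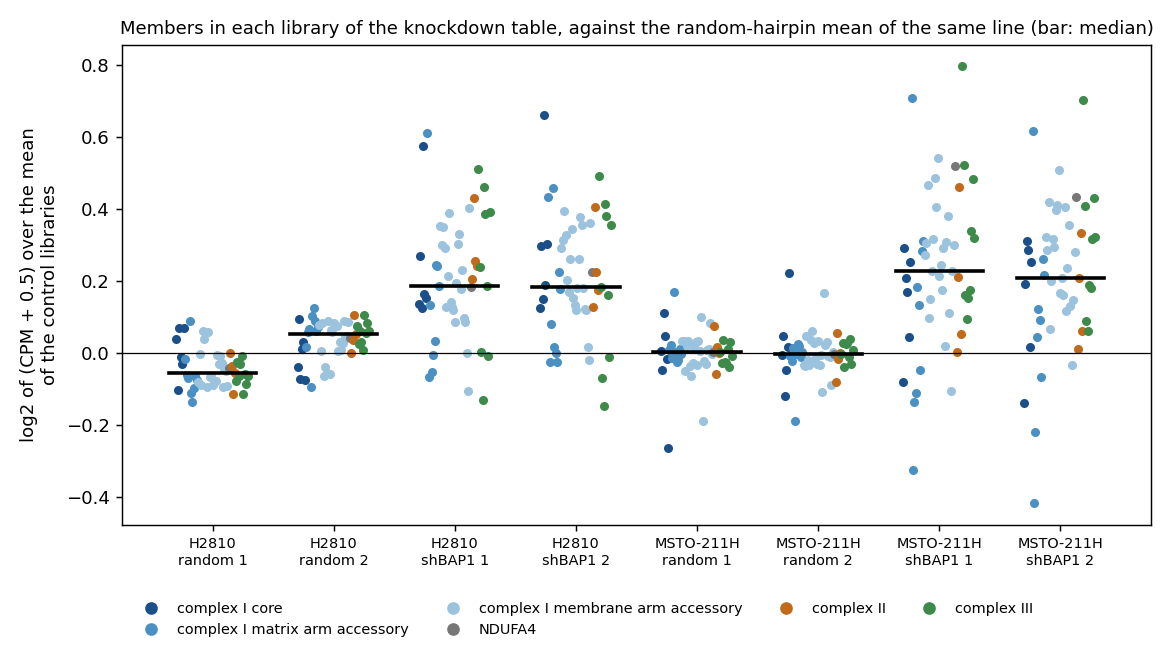
Each point is 1 member (1 member not shown) in 1 library of the knockdown table, as the log2 of its CPM plus 0.5 over the mean of the 2 random-hairpin libraries of the same line (y axis), coloured by role, and the bar is the median of all members. The medians of the shBAP1 libraries lie between 0.18 and 0.23, while the random-hairpin libraries of H2810 stand at -0.05 and 0.05.

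The random-hairpin libraries of H2810 differed from each other in these genes. The members summed to 2719 CPM in the first and 2892 CPM in the second, and 42 of 51 were higher in the second. With shBAP1 the sums were 3247 and 3213 CPM, above both. In MSTO-211H the sums were 3459 and 3483 against 4007 and 3947 CPM. Without the first random-hairpin library of H2810 the members' median log2 fold change with shBAP1 was 0.18, and without the second 0.28. The median of all genes was 0 in both fits. Between replicates of H2810 the counts of all genes differed with a chi-square per degree of freedom of 16.5 and 16.3, against 2.21 and 2.18 in MSTO-211H. The calls used a spread estimated over the 8 libraries of both lines together. With only the 2 groups of a line fitted, 23 of 50 members were called higher in H2810 and 38 of 51 in MSTO-211H. Of all genes, 3075 of 14545 and 4287 of 14410 were called higher in these fits. The fibroblast markers of H2810 also moved with the hairpin, with summed levels of 10542 and 9978 CPM against 8340 and 7438 CPM, and 5 of 7 tested were called lower and 1 higher. In MSTO-211H they summed to 983 and 945 against 1230 and 1134 CPM, with 4 of 7 called lower and 1 higher. The mesothelial markers summed to 1627 to 1692 CPM in all 4 knockdown libraries of H2810, with 4 of 9 tested called higher and none lower, and in MSTO-211H to 9575 and 8869 against 11219 and 10687 CPM, with 6 of 9 tested called higher and 1 lower. Their part in the members' rise was not tested.

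The response was not the same in both lines for every member. The difference of the responses, MSTO-211H minus H2810, was tested in 1 model over the 8 libraries, and 5 members were called higher and 6 lower, where 11.2% and 16.5% of all genes tested were (27.7% either way). The response in MSTO-211H was larger for NDUFB3 (difference 0.40 ± 0.09, adjusted p = 0.00711), NDUFA4 (0.27 ± 0.07), NDUFB2 (0.27 ± 0.08), NDUFB10 (0.26 ± 0.07) and UQCRC1 (0.22 ± 0.07). It was lower for NDUFS8 (-0.39 ± 0.08, adjusted p = 0.00504), NDUFA5 (-0.33 ± 0.09), NDUFA6 (-0.29 ± 0.10), UQCRC2 (-0.27 ± 0.07), NDUFS1 (-0.24 ± 0.07) and NDUFA10 (-0.23 ± 0.08). Among the 7 core subunits of complex I, 2 were called lower and none higher. None of the 4 subunits of complex II was called, so the call of SDHD in H2810 alone does not show a difference between lines. The calls of NDUFB3 and NDUFS8 held in all 14 alternative settings, and those of NDUFA6 and NDUFA10 in 2 and 3 of them. Without the second random-hairpin library of H2810, 1 member was called higher and 11 lower, and without the first, 6 and 4. Leaving out either random-hairpin or either shBAP1 library of MSTO-211H left 1 or 2 called higher and 2 or 3 lower. Without the first shBAP1 library of H2810, 3 were called higher and 4 lower.

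Many members are short transcripts, with a median length of 857 bases against 3424 for the other protein-coding genes tested. The 29 members under 1000 bases had 48.3% called higher in H2810 and 69.0% in MSTO-211H, where 28.9% and 29.1% of the other 657 genes of that length were. Among the 22 longer members, 59.1% and 45.5% were called higher, against 26.3% and 24.6% of the other longer genes. The members' share was above that of other genes in both length classes. The classes were not matched for CPM, and the part of length in the members' rise was not tested.

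Lists of other nuclear genes of the respiratory chain were read beside the members. Of 17 subunits of the ATP synthase, 11 were called higher in H2810 and 15 in MSTO-211H, and of 11 nuclear subunits of complex IV, 6 and 8, with none lower. ATP5MC3, of the rotor ring, went from 72.5 and 74.5 to 115 and 114 CPM in MSTO-211H, and COX7A2, of complex IV, rose by 0.37 ± 0.06 and 0.47 ± 0.06. CYC1, the cytochrome subunit of complex III, went from 93.7 and 95.0 to 119 and 118 CPM in H2810 and from 266 and 281 to 354 and 346 CPM in MSTO-211H. With CYC1, the list of complex III assembly factors had 5 of 9 called higher in H2810 and 3 in MSTO-211H and none lower. The complex I assembly factors had 9 of 16 higher in H2810, and 4 higher and 1 lower in MSTO-211H, where 4 of 16 is near the 21.7% of all genes called higher. Of the 4 complex II assembly factors, 1 was called higher and 1 lower in H2810, and 1 higher in MSTO-211H. FOXRED1 led the complex I assembly factors in both lines (0.56 ± 0.06 and 0.49 ± 0.07). NUBPL, which delivers iron-sulfur clusters to complex I, was the one of that list called lower in MSTO-211H (-0.34 ± 0.08).

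The tricarboxylic acid cycle had 12 of 16 called higher and 3 lower in H2810, and 7 higher and 4 lower in MSTO-211H. OGDH led in both (0.74 ± 0.05 and 0.82 ± 0.05), while DLST, another component of the same enzyme complex, fell by 0.46 and 0.61. Among 15 genes of the outer membrane and protein import, 13 were called higher in H2810, against 7 higher and 2 lower in MSTO-211H. VDAC1, the main pore of the outer membrane, went from 87.7 and 93.6 to 353 and 345 CPM in H2810 (1.94 ± 0.05) and from 442 and 459 to 598 and 592 CPM in MSTO-211H (0.40 ± 0.05), and this difference was called (-1.54 ± 0.07, adjusted p = 2.07e-07). Glycolysis and lactate genes had 13 of 19 higher and 2 lower in H2810, and 8 higher and 5 lower in MSTO-211H. The regulators of mitochondrial biogenesis had 6 of 13 higher and 2 lower in H2810, and 5 higher and 1 lower in MSTO-211H. With the random hairpin and shBAP1 they summed to 769 and 789 against 818 and 797 CPM in H2810. In MSTO-211H the sums were 2385 and 2461 against 2205 and 2224 CPM. Of 8 mitochondrially encoded genes of complexes I and III, MT-ND6 alone was called, lower in H2810 (-0.39 ± 0.09) and higher in MSTO-211H (0.49 ± 0.09), and this difference was called (0.88 ± 0.13, adjusted p = 0.000479). The 8 genes summed to 10228 and 15436 CPM with the random hairpin and to 10136 and 17696 CPM with shBAP1 in H2810. In MSTO-211H they summed to 25405 and 26425 against 21293 and 24982 CPM. The H2810 replicates were far apart, so the lack of calls there does not show that these genes kept their level. The libraries were made from poly-A RNA.

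Inhibition of EZH2 with GSK126 was accompanied by a smaller share of calls among these genes than among all genes. In H2810, 2 of 51 members (3.92%) were called higher and 7 (13.7%) lower. Of all 15999 genes tested, 16.3% were called higher and 12.9% lower there (29.3% either way). The share of members called lower in H2810 was thus near that of all genes, and only the rises were scarce. In H2731 none was called higher and 2 lower, where 13.8% and 10.9% of all genes were (24.7% either way). At an unadjusted p under 0.05, 2 members were higher and 4 lower in H2731 with edgeR, without a count of all genes at that threshold. DESeq2 called no member higher or lower there, where it called 1391 of the 15999 genes higher and 732 lower. The median log2 fold change of the members was -0.01 in H2810 and -0.03 in H2731, and no called change exceeded 1.21-fold. The groups did not overlap for 7 members upward and 15 downward in H2810, as for 32.4% and 30.3% of all genes, and for 9 and 7 in H2731, as for 30.3% and 29.2%.

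**Figure D3:**
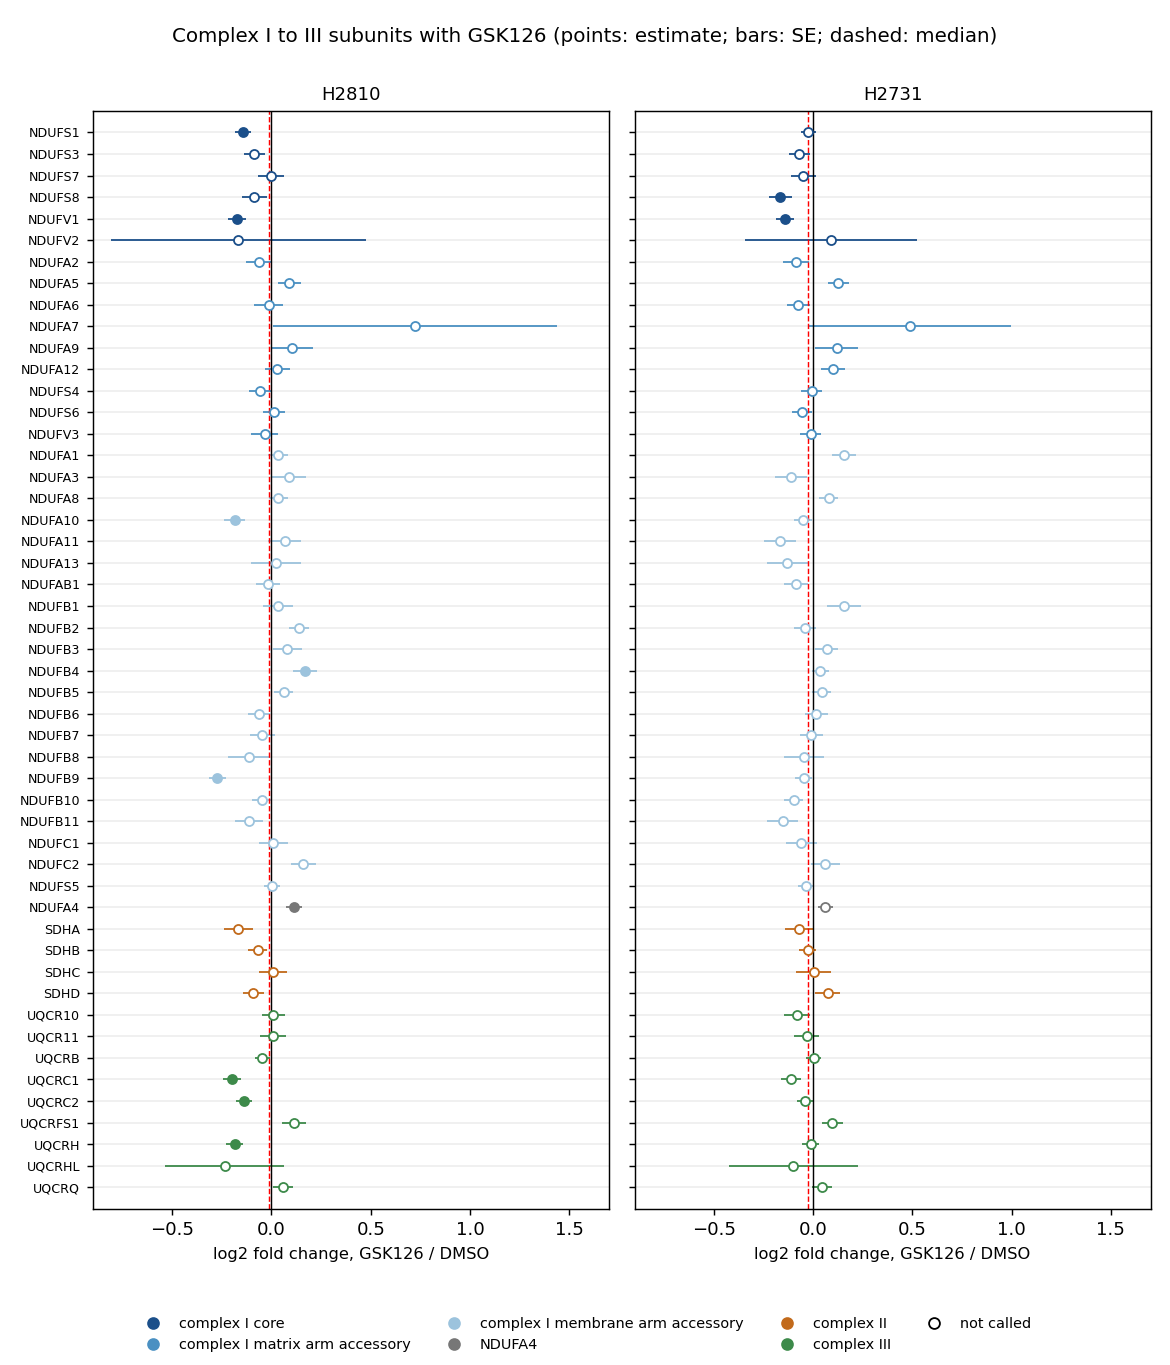
Log2 fold change of the human members (1 not shown) with GSK126 against DMSO (x axis) in H2810 and H2731, by role, with SE bars, filled points for called members and a dashed line at the median. Filled points are few and within 0.27 of 0, and the long bars belong to NDUFV2, NDUFA7 and UQCRHL, which have few counts.

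The largest change among the called members was a fall of NDUFB9, an accessory subunit of the membrane arm, in H2810. It was at 127 and 126 CPM with DMSO and at 104 and 106 CPM with GSK126, without overlap, and it fell by 0.27 on the log2 scale (SE 0.04, adjusted p = 5.49e-05). In H2731 it was at 121 and 114 against 116 and 112 CPM (-0.05 ± 0.04), and NDUFB9 was the only member whose response was called different between the lines (0.23 ± 0.06, adjusted p = 0.0132). That call was lost in 5 of 14 alternative settings, among them leaving out either GSK126 library of H2810, the second DMSO library of H2731 or the first GSK126 library of H2731. Of all genes tested, 8.08% had a response called higher in H2731 than in H2810, and 6.66% lower (14.7% either way). On the chosen transcript of NDUFB9, 23.9% lies under exons of TATDN1 on the opposite strand.

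Both core proteins of complex III fell with GSK126 in H2810. UQCRC1 was at 245 and 241 against 214 and 210 CPM (-0.20 ± 0.04, adjusted p = 0.00222), and UQCRC2 at 157 and 160 against 142 and 146 CPM (-0.14 ± 0.04, adjusted p = 0.0117). UQCRH was at 143 and 150 against 125 and 133 CPM (-0.19 ± 0.04). The other falls were in complex I, NDUFA10 (-0.19 ± 0.05), NDUFS1 (-0.14 ± 0.04) and NDUFV1. NDUFV1, the NADH-binding subunit, was the only member called in both lines: it was at 141 and 136 against 122 and 124 CPM in H2810 (-0.17 ± 0.05, adjusted p = 0.00655) and at 140 and 126 against 120 and 121 CPM in H2731 (-0.14 ± 0.05, adjusted p = 0.0255).

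NDUFB4 and NDUFA4 were the rises in H2810. NDUFB4 went from 30.7 and 30.9 to 34.6 and 34.7 CPM (0.17 ± 0.06, adjusted p = 0.036), and NDUFA4 from 134 and 126 to 139 and 141 CPM (0.11 ± 0.04, adjusted p = 0.0409). NDUFS8, called lower in H2731, was at 109 and 94.5 against 93.3 and 88.6 CPM (-0.17 ± 0.06, adjusted p = 0.0433). No subunit of complex II was called in either line, and the estimates for SDHA, SDHB, SDHC and SDHD lay between -0.17 and 0.07. NDUFB9 and UQCRC1 in H2810 kept their calls in all 11 alternative settings, and the other members called with GSK126 did not. In H2810, leaving out 1 library at a time left at most 1 member called higher, and 3 lower without the first GSK126 library. In H2731, none was called without the first DMSO library or without either GSK126 library, and 4 were called lower without the second DMSO library.

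In the tricarboxylic acid cycle, 1 of 16 was called higher and 7 lower in H2810, and 1 and 4 in H2731. Citrate synthase (CS), its entry enzyme, went from 202 and 205 to 169 and 171 CPM in H2810 and from 286 and 283 to 244 and 248 CPM in H2731. Of 17 ATP synthase subunits, 4 were called lower in H2810 and 2 in H2731, with none higher, and CYC1 was called lower in both lines (-0.17 ± 0.04 and -0.13 ± 0.04). None of the 11 nuclear subunits of complex IV was called in either line. Of 8 mitochondrially encoded genes of complexes I and III, 2 were called lower in H2810 and 3 in H2731, with none higher. Glycolysis and lactate genes had 2 of 19 higher and 9 lower in H2810, and 1 higher and 8 lower in H2731. The outer membrane and import genes had 1 of 15 higher and 5 lower in H2810, and 1 higher and 4 lower in H2731. Of the 13 regulators of mitochondrial biogenesis, 2 were called higher and 3 lower in H2810, and 2 higher and 2 lower in H2731. PPARGC1A, the coactivator best known for driving mitochondrial biogenesis, rose in H2810 from 0.63 and 0.54 to 4.10 and 4.11 CPM (2.81 ± 0.24, adjusted p = 2.69e-08) and in H2731 from 3.48 and 3.64 to 6.05 and 5.45 CPM (0.69 ± 0.14, adjusted p = 0.00128). Its related coactivator PPARGC1B rose by 1.23 ± 0.19 and 0.86 ± 0.16. The mesothelial markers moved with the drug as well, from 3443 and 3259 to 2416 and 2398 CPM in H2810 and from 7952 and 7327 to 6256 and 6153 CPM in H2731. Of the 10 tested, 4 and 5 were called lower and 1 higher in each line, and their part in the members' values was not tested.

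Between the lines, 6 called members passed a 2-fold difference in each comparison, where none did with either treatment. The share of all genes past 2-fold was not counted. Between control cells with the random hairpin, 26 of 51 members were called higher and 10 lower in MSTO-211H than in H2810, where 39% of all genes tested were called higher and 40.7% lower. With DMSO, 17 were called higher and 21 lower in H2731 than in H2810, where the shares of all genes were 41.5% and 40.7%. Either way, 70.6% and 74.5% of the members were called, against 79.7% and 82.2% of all genes. Both comparisons are set against H2810, in different libraries.

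**Figure D4:**
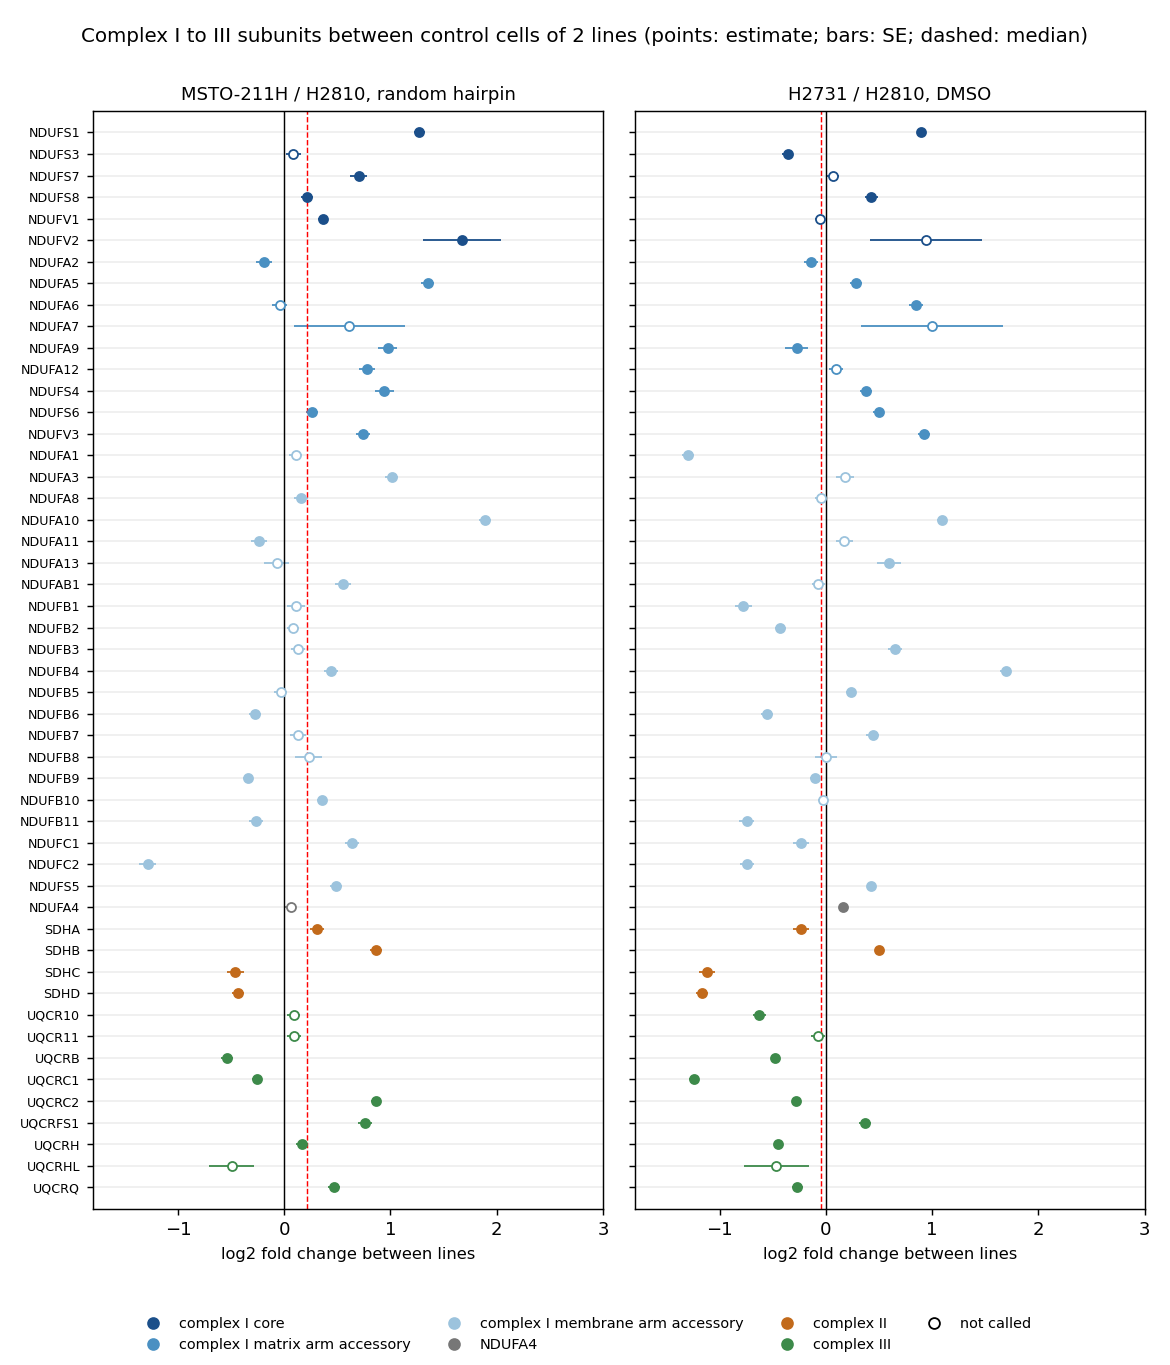
Log2 difference of the human members (1 not shown) between control cells of 2 lines (x axis), MSTO-211H over H2810 with the random hairpin and H2731 over H2810 with DMSO, by role, with SE bars, filled points for called members and a dashed line at the median. Points spread from -1.28 to 1.89 in the first panel and from -1.30 to 1.69 in the second, and complex III lies mostly to the left of 0 in the second.

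NDUFA10, a subunit that resembles nucleoside kinases, differed most in MSTO-211H. It was at 42.2 and 38.7 CPM in H2810 and at 152 and 148 CPM in MSTO-211H (1.89 ± 0.06, 3.70-fold, adjusted p = 4.81e-11). NDUFS1 was 1.27 ± 0.05 higher, NDUFA5 1.35 ± 0.06 and NDUFA3 1.01 ± 0.06. NDUFV2 also passed 2-fold (1.67 ± 0.36), but at 0.43 and 0.34 against 0.96 and 1.54 CPM. In the other direction, NDUFC2 was at 36.4 and 39.0 CPM in H2810 and at 16.4 and 14.5 CPM in MSTO-211H (-1.28 ± 0.08, adjusted p = 2.27e-08). By role, 6 of 7 core subunits of complex I and 6 of 9 of the matrix arm were higher, while the membrane arm had 8 higher and 5 lower.

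In H2731 the accessory subunit NDUFB4 stood out, at 30.7 and 30.9 CPM in H2810 and 98.1 and 101 CPM in H2731 (1.69 ± 0.05, 3.23-fold, adjusted p = 5.05e-17). NDUFA10 was also higher (adjusted p = 2.32e-14), at 113 and 109 against 54.1 and 49.9 CPM. NDUFA1, an X-linked membrane subunit, was at 87.8 and 79.9 CPM in H2810 and 33.4 and 34.7 CPM in H2731 (-1.30 ± 0.05, adjusted p = 1.41e-14). UQCRC1 was at 109 and 96.3 CPM against 245 and 241 CPM (-1.24 ± 0.05, adjusted p = 2.58e-15). Complex III had 6 of 9 genes lower and 1, UQCRFS1, higher (0.37 ± 0.06).

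Within complex II the subunits parted in both comparisons. SDHB was higher in MSTO-211H (0.87 ± 0.05) and in H2731 (0.50 ± 0.05) than in H2810. The anchors were lower: SDHC by 0.46 ± 0.08 in MSTO-211H and 1.12 ± 0.08 in H2731, and SDHD by 0.44 ± 0.06 and 1.17 ± 0.06. SDHD was at 76.8 and 76.5 CPM in H2810 with DMSO and at 35.9 and 32.1 CPM in H2731, and SDHC at 46.6 and 46.5 against 23.7 and 18.8 CPM. SDHA was higher in MSTO-211H and lower in H2731. Over all members, 11 were called higher in both lines than in H2810, which is 42.3% of those higher in MSTO-211H and 64.7% of those higher in H2731, against 62.5% and 59.3% over the 14978 genes tested in both tables. Another 9 were called lower in both (90% and 42.9%, against 65.0% and 64.6% over those genes), and 7 were higher in MSTO-211H and lower in H2731 (26.9% and 33.3%, against 22.3% and 19.9%). These differences in share were not tested.

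Of the 6 comparisons between groups of the human lines, UQCRC1 was called lower in 4 and higher in none: with shBAP1 and with GSK126 in H2810, and in MSTO-211H and H2731 against H2810. The comparisons of 1 table share their H2810 control libraries, so these calls are not separate evidence.

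In the mouse cells no member was called between BNC and NC, and neither was any other gene: 0% of the 12225 genes tested passed in edgeR. At an unadjusted p under 0.05, 2 of 49 members were higher and none lower, without a count of all genes at that threshold. DESeq2 called 1 member, Ndufb9 (higher, adjusted p = 0.0216), with 89 of all genes higher and 213 lower. The spread between replicates was wide, with a square root of the common dispersion of 0.539, against 0.0533 in the knockdown table. BNC replicates 4 and 5 resembled each other (chi-square per degree of freedom 14.1), while replicate 6 stood apart from both (310 and 293), and the NC libraries stood at 129. The mesothelial markers summed to 914 and 983 CPM in BNC replicates 4 and 5, 134 CPM in BNC replicate 6, and 1003 and 2688 CPM in NC. The fibroblast markers summed to 1695 and 1991, 12235, and 5147 and 7532 CPM in the same order.

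The estimates were positive for 37 of the 49 members, with a median of 0.14 where the median of all genes was 0.03. Without BNC replicate 6 the members' median was 0.061, where that of all genes was -0.016. With a replicate block the medians were 0.072 and 0.0097. Ndufb9 was at 79.6, 82.9 and 84.3 CPM in BNC and at 58.1 and 59.0 CPM in NC (log2 difference 0.49 ± 0.16, unadjusted p = 0.025, adjusted p = 0.64). Ndufs3 was at 47.4, 51.1 and 48.2 against 36.8 and 35.1 CPM (0.44 ± 0.17, unadjusted p = 0.049, adjusted p = 0.74). For both genes the groups did not overlap. In 10 members every BNC library was above both NC libraries, and in none below, where 11.2% and 12.8% of all genes tested were.

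Complex II was positive for each of its 4 genes, led by Sdha at 307, 324 and 285 against 261 and 237 CPM (0.30 ± 0.17, adjusted p = 0.83). All 7 core subunits of complex I had positive estimates, from 0.04 to 0.44. Complex III had 5 positive and 3 negative, with Uqcrb at 72.6, 71.0 and 62.3 against 58.1 and 45.3 CPM (0.41 ± 0.20, adjusted p = 0.80). The lowest estimate was that of Ndufv3, at 12.5, 12.1 and 26.7 against 23.9 and 35.2 CPM (-0.79 ± 0.45), where BNC replicate 6 lay with the NC libraries. None of these differences passed the test.

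**Figure D5:**
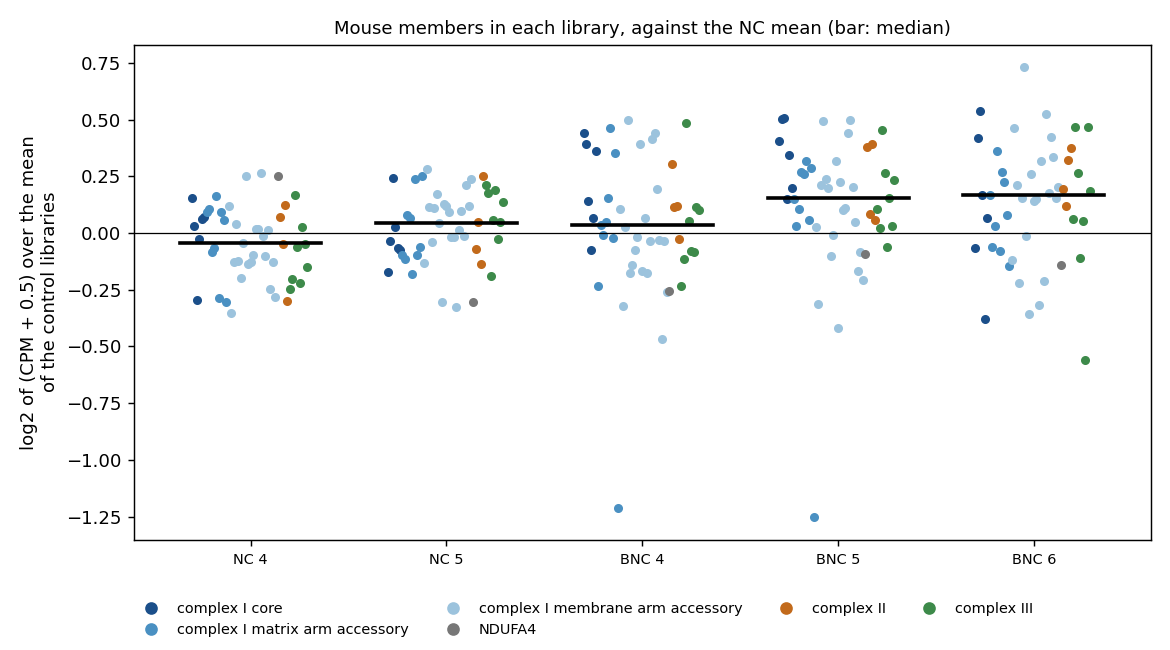
Each point is 1 mouse member (1 not shown) in 1 library, as the log2 of its CPM plus 0.5 over the mean of the NC libraries (y axis), coloured by role, and the bar is the median of all members. The medians of the BNC libraries are 0.04, 0.15 and 0.17 and those of NC -0.04 and 0.04, and the lowest points, in replicates 4 and 5, are Ndufv3.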

How the data were processed

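RNA sequencing was read as gene counts in 21 libraries. Per the labels' protocols, poly-A libraries were made with a TruSeq kit and sequenced as single-end reads of 65 bases. The deposited counts are raw counts per Ensembl gene, 1 column per library. Per the submitters' processing notes, TopHat2 2.0.12, HTSeq, TopHat and DESeq2 were used, on the builds mm10 and GRCm38. The human build, the strand setting and the handling of multi-mapped reads are not given in the sources used here. All 51 human members were found by identifier in GENCODE v44 of GRCh38 and overlapped its positions.

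The mouse, drug and knockdown tables were fitted separately over all of their libraries with edgeR 4.0.16 (R 4.3.3): filterByExpr, TMM factors, quasi-likelihood F tests and Benjamini-Hochberg adjustment over all genes tested. The SE is the log2 fold change over the square root of F, CPM use the TMM-adjusted library size, and the code was tested on simulated data. Lengths are of 1 chosen transcript a gene in GENCODE. Some members are counted but not reported by name here. Named members were core subunits, complex II, UQCRC1, UQCRC2, UQCRFS1, NDUFA4 and UQCRHL, members with few counts, up to 6 rises and 6 falls among non-overlapping calls, and members called most often. From other lists, up to 2 called genes of smallest p were taken, not all printed. TATDN1, TMCO6, NUBPL, the names of markers and the genes given beside others of their list were chosen after their values were seen. The members and lists were chosen with earlier results of these data known, and the NRF1 and YY1 letters were shortened by 1 base after a first search. Alternatives were DESeq2 1.42.0, limma-voom (limma 3.58.1), RLE factors, no filter, a filter of 50 counts in 2 libraries, only the groups compared, a replicate block, and each library left out.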

Additional observations from a re-analysis of the deposited data

Results flagged for a closer look

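The difference of the responses to shBAP1, MSTO-211H minus H2810, was called by its own edgeR test for 11 members, 21.6% of the 51, where 27.7% of all genes tested were. On the log2 scale it was 0.40 for NDUFB3, 0.27 for NDUFA4, 0.27 for NDUFB2, 0.26 for NDUFB10 and 0.22 for UQCRC1. UQCRC1 was called lower in H2810 (-0.14) and was not called in MSTO-211H (0.08). It was -0.39 for NDUFS8, -0.33 for NDUFA5, -0.29 for NDUFA6, -0.27 for UQCRC2, -0.24 for NDUFS1 and -0.23 for NDUFA10. The adjusted p ran from 0.00504 for NDUFS8 to 0.0484 for NDUFA6. The difference of the responses to GSK126, H2731 minus H2810, was called for NDUFB9 at 0.23 (adjusted p = 0.0132). No group of the series has the 4 libraries that a test for a single outlying library needs.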

How the results depend on the processing

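Over all settings, the called members kept their call in 19 of 28 cases with shBAP1 in H2810, 20 of 31 in MSTO-211H, 2 of 9 with GSK126 in H2810 and 0 of 2 in H2731, and in 30 of 36 and 32 of 38 for the line differences. The causes of the changes below were not tested. With shBAP1 in H2810, 23 (DESeq2, only the 2 groups) to 29 members were called higher across the settings that kept all libraries of the 2 groups, and 0 lower with RLE factors, no filter, DESeq2 or only the 2 groups. The median was 0.2545 without the filter. In MSTO-211H, 26 (DESeq2) to 38 (only the 2 groups) were called higher, with 2 lower by limma-voom and 3 with only the 2 groups. The median there was 0.2625 with RLE factors and with DESeq2. Of all genes, DESeq2 called 2982 of 15872 higher in MSTO-211H, and the fit of only the 2 groups 4287 of 14410. In H2810 these counts were 3121 of 15872 and 3075 of 14545. The counts over all genes also moved across the other settings, and are not given beside each value. For the difference of the shBAP1 responses, 1 was called higher without the filter and 2 with DESeq2, 2 lower with DESeq2, and the median was -0.0276 without the filter and 0.0441 with at least 50 counts. With GSK126 in H2810, 1 was called higher without the filter, 0 with DESeq2, and 4 with the replicate block or only the 2 groups, and 4 were called lower with DESeq2. In H2731, 0 were called lower with DESeq2 and 1 with limma-voom. For the difference of the GSK126 responses, 0 were called higher with DESeq2 and 2 with the replicate block. For H2731 against H2810 the median was -0.0757 with at least 50 counts and -0.0772 with only the 2 groups, and for MSTO-211H against H2810 it was 0.2504 without the filter and 0.1804 with at least 50 counts. In the mouse, DESeq2 called 1 higher. A replicate number does not mark a shared source in the labels. In the human lines, deviations from the group mean correlated at -0.10 to 0.13 between samples of the same number. In the mouse they correlated at 0.31 for number 4 and at -0.27 for number 5. The replicate block gave 28 members higher and 1 lower in H2810 and 29 and 1 in MSTO-211H with shBAP1. Leaving out 1 library leaves a human group with 1 library, which is assumed to vary like the other groups. With shBAP1 it gave medians from 0.1762 to 0.2841 in H2810 and from 0.2133 to 0.2535 in MSTO-211H. For the difference of these responses it gave 1 to 6 higher, 2 to 11 lower and medians from -0.0608 to 0.0506. With GSK126 it gave 0 to 1 higher and 3 to 6 lower in H2810, 0 to 4 lower and medians from -0.0535 to -0.0012 in H2731, and for the difference 0 to 2 higher, 0 to 1 lower and medians from -0.0274 to 0.0501. For H2731 against H2810 the medians ran from -0.0982 to -0.0052, for MSTO-211H against H2810 from 0.1967 to 0.2836, and in the mouse from 0.0609 to 0.1856. SDHA in MSTO-211H ran from -0.0721 to 0.0892 and changed sign without the second random-hairpin library. Of 1937 values for single members, 1722 kept direction and call, 203 lost the call, 11 gained one and 1, that of SDHA, reversed. NDUFV2, NDUFA7 and UQCRHL, at under 2 CPM, had standard errors of 0.20 to 0.53 with shBAP1.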
